A study of Mus musculus with 4 samples.

Results

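The BTG/Tob and TTP (tristetraprolin) families are small groups of proteins that bring deadenylases to messenger RNA. The transcripts described here are the 8 family members Btg1, Btg2, Btg3, Tob1, Tob2, Zfp36, Zfp36l1 and Zfp36l2, chosen by gene name among the 53379 genes of the deposited table. All 8 were present, and all 8 passed the filter on low values that 15745 genes passed. RNA was recovered by immunoprecipitation with an antibody against Cpeb4 (anti-Cpeb4) or with control IgG (anti-IgG). The tissue was V-SVZ, the ventricular-subventricular neurogenic wall of the lateral ventricles, dissected from wild-type (WT) CD1 mice at postnatal day 7 or 8. The experiment was done 2 times with 1 Cpeb4 and 1 IgG library each, so every group held 2 libraries. Genotype, strain, age and tissue were shared by both groups, and only the antibody differed. The labels do not say how many animals were pooled or whether the experiments used separate animals. The p-values therefore rest on the spread between these libraries, which may be technical. For each gene that spread is borrowed largely from other genes.

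Members of the BTG/Tob family (BTG stands for B-cell translocation gene) are antiproliferative proteins. Their shared amino-terminal domain binds the Caf1-type catalytic subunits of the CCR4-NOT deadenylase, which are encoded by Cnot7 and Cnot8, and poly(A) tails shorten when BTG/Tob proteins tether this complex to an mRNA. The TTP family carries a tandem pair of CCCH zinc fingers that bind AU-rich elements in 3′ untranslated regions and recruit CCR4-NOT. Cpeb4 also binds 3′ untranslated regions, at cytoplasmic polyadenylation elements, and acts on tail length and translation. Tob is known to link the paralog Cpeb3 to Caf1, and in mouse macrophages Cpeb4 and TTP act in opposite directions on shared mRNAs. In the mouse brain Btg2 (Tis21, PC3) marks progenitors that divide to make neurons, and loss of Btg1 depletes quiescent neural stem cells.

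The libraries held 22486721 to 35037171 reads on genes, counted from the step that a single read makes in FPKM, the authors' depth-normalized measure per kilobase of gene. The 2 Cpeb4 libraries differed from each other more than the 2 IgG libraries, with a chi-square per degree of freedom of 23.0 against 4.97. The transcript that encodes the antibody's target protein, Cpeb4, was at 26.7 and 38.3 FPKM in Cpeb4 and at 9.04 and 9.66 in IgG immunoprecipitates. Neuroblast and neural stem cell markers were present in every library, and Dcx, the microtubule protein of migrating neuroblasts, was at 64.5 and 78.2 against 23.6 and 23.2 FPKM. Dcx had the largest log2 fold change of the 12 listed neuroblast markers (1.56). By the rule given below, 8 of the 12 were called higher, 0 lower and 4 not called. Of all tested genes, 38.8% were called higher and 11.6% lower by it. All values are relative levels of RNA within a precipitate, read from amplified cDNA, and not the amount of RNA that an antibody recovered. They do not measure protein. Each precipitate is a bulk sample, in which the number of cells of a type and the RNA per cell cannot be told apart. Every library came from a Cpeb4 or an IgG precipitate, so levels in the tissue itself were not measured.

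The comparison of Cpeb4 with IgG asks which family transcripts had a higher relative level with Cpeb4 than with the control antibody. Of the 8 members, 6 were higher with Cpeb4, 0 were lower and 2 were not called. The 6 were Zfp36l1, Tob1, Btg2, Btg1, Zfp36l2 and Tob2, with levels 1.99-fold to 3.53-fold those in IgG by the ratio of mean FPKM. Btg3 and Zfp36, the members with the lowest levels, were not called. A call required a Benjamini-Hochberg adjusted p under 0.05 over all tested genes, from limma on log2(FPKM + 1) with experiment as a block, and fold changes below are on that scale unless stated. Over all tested genes 38.8% were called higher and 11.6% lower by the same rule. The median log2 fold change of the members was 1.01, against 0.19 for all tested genes.

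**Figure D1:**
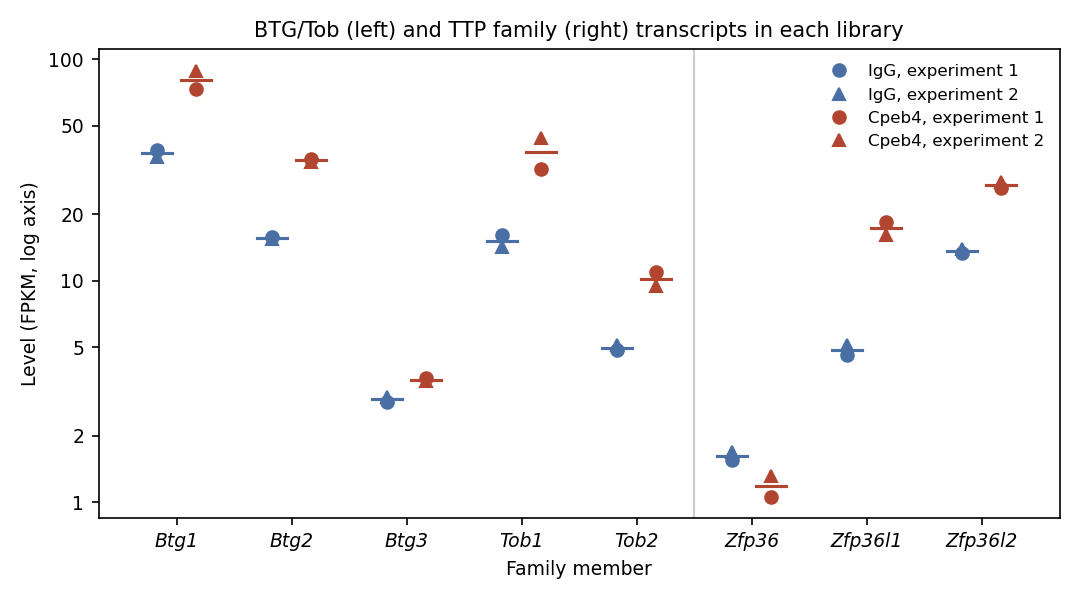
Levels of the 8 transcripts in each library, in FPKM on a log axis, with IgG in blue, Cpeb4 in red, circles for experiment 1 and triangles for experiment 2; horizontal lines are means of 2 libraries. Both Cpeb4 libraries lie above both IgG libraries for every member but Zfp36, for which both lie below. Of all tested genes, 53.2% are separated in this way with Cpeb4 higher and 22.7% with Cpeb4 lower. The separation is small for Btg3 (3.53 and 3.64 against 2.85 and 2.998 FPKM).

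Among the BTG proteins, Btg1 was the most abundant family transcript in every library. Btg1 (ENSMUSG00000036478.8, chromosome 10: 96617001 to 96622813, GRCm38.p6, RefSeq) was at 72.9 and 88.8 FPKM with Cpeb4 (experiments 1 and 2) and at 39.0 and 36.1 FPKM with IgG. The groups did not overlap, as for 53.2% of all tested genes in this direction, and the Cpeb4 library of experiment 2 was the highest. Btg1 was higher with Cpeb4 at 80.9 ± 11.2 against 37.5 ± 2.02 FPKM (mean ± SD, n = 2 each), and its log2 fold change was 1.08 (SE 0.13, 95% interval 0.80 to 1.36, limma adjusted p = 5.66e-06). Its size depended on the processing, from 0.40 to 1.22 over 14 alternatives. It was 0.58 with libraries scaled to read totals (limma adjusted p = 0.000283) and 0.40 once a loess trend across gene lengths and levels was subtracted (limma adjusted p = 0.00693).

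Btg2, which is induced as an immediate early gene and by p53, gave the closest replicates of the BTG members that were called. Btg2 (ENSMUSG00000020423.6, chromosome 1: 134074865 to 134079155) was at 35.5 and 34.3 FPKM in Cpeb4 and at 15.8 and 15.4 FPKM in IgG immunoprecipitates. Both Cpeb4 libraries were high, both IgG libraries were low, and the 2 experiments gave log2 differences of 1.12 and 1.10. The transcript was higher with Cpeb4 at 34.9 ± 0.889 against 15.6 ± 0.289 FPKM; the log2 fold change was 1.11 (SE 0.12, 95% interval 0.85 to 1.37, limma adjusted p = 1.61e-06).

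Btg3 (also called ANA), another antiproliferative BTG protein, was recovered at low levels with either antibody. Btg3 (ENSMUSG00000022863.14, chromosome 16: 78359860 to 78377181) was at 3.64 and 3.53 FPKM in Cpeb4 and at 2.85 and 2.998 FPKM in IgG. The Cpeb4 libraries were the higher ones without overlap, as for 53.2% of all tested genes. The log2 fold change was 0.22 (SE 0.14, 95% interval -0.07 to 0.52, limma adjusted p = 0.200), which left Btg3 uncalled and close to the median of all tested genes. Btg3 had 99 to 158 reads per library, and its sign turned to -0.16 with libraries scaled to read totals, where the adjusted p was 0.363 by limma.

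Tob1 and Tob2 carry, beyond the domain shared with BTG proteins, a long carboxy-terminal region that binds the cytoplasmic poly(A)-binding protein encoded by Pabpc1. Tob1 (ENSMUSG00000037573.5, chromosome 11: 94209842 to 94215495) was at 31.9 and 44.0 FPKM in Cpeb4 and at 16.2 and 14.2 FPKM in IgG immunoprecipitates. The groups did not overlap, and the spread within Cpeb4 was the widest of the 8 members relative to the mean, with the library of experiment 2 the higher. Tob1 was higher with Cpeb4 at 37.9 ± 8.55 against 15.2 ± 1.37 FPKM, and the log2 fold change was 1.25 (SE 0.14, 95% interval 0.95 to 1.56, limma adjusted p = 2.88e-06). The difference was 0.94 in experiment 1 and 1.56 in experiment 2.

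Tob2, the less abundant Tob transcript, differed by a similar factor. Tob2 (ENSMUSG00000048546.7, chromosome 15: 81848270 to 81858326) was at 10.99 and 9.43 FPKM in Cpeb4 and at 4.85 and 5.11 FPKM in IgG. Both Cpeb4 libraries stood above both IgG libraries, here with experiment 1 the higher. Its log2 fold change was 0.90 (SE 0.13, 95% interval 0.63 to 1.18, limma adjusted p = 2.78e-05), and it was 0.46 with libraries scaled to read totals (limma adjusted p = 0.00367).

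Within the TTP family, Zfp36l1 (Brf1, TIS11b) had the largest log2 fold change of the 8 members. Zfp36l1 (ENSMUSG00000021127.7, chromosome 12: 80107760 to 80113013) was at 18.3 and 16.1 FPKM in Cpeb4 and at 4.64 and 5.13 FPKM in IgG immunoprecipitates. Both Cpeb4 libraries were more than 3 times as high as either IgG library. Zfp36l1 was higher with Cpeb4 at 17.2 ± 1.58 against 4.89 ± 0.344 FPKM, which gave a log2 fold change of 1.63 (SE 0.13, 95% interval 1.35 to 1.90, limma adjusted p = 1.00e-07). This was the 267th largest log2 fold change of the 15745 tested genes, close to that of the Cpeb4 transcript, the 223rd largest (1.67, SE 0.13).

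Zfp36l2 (Brf2, TIS11D) was the most abundant TTP family transcript. Zfp36l2 (ENSMUSG00000045817.8, chromosome 17: 84183924 to 84187947) was at 26.3 and 27.8 FPKM in Cpeb4 and at 13.3 and 13.9 FPKM in IgG. The groups did not overlap, and the experiments gave nearly the same log2 difference (0.93 and 0.95). The log2 fold change was 0.94 (SE 0.12, 95% interval 0.69 to 1.20, limma adjusted p = 8.39e-06), and it was 0.46 with libraries scaled to read totals (limma adjusted p = 0.00342).

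Zfp36, which encodes tristetraprolin itself, was the only member with a lower level in both Cpeb4 libraries. Zfp36 (ENSMUSG00000044786.6, chromosome 7: 28376784 to 28379228) was at 1.06 and 1.32 FPKM in Cpeb4 and at 1.56 and 1.69 FPKM in IgG immunoprecipitates. The groups did not overlap, in the direction shared by 22.7% of tested genes. The log2 fold change was -0.26 (SE 0.16, 95% interval -0.61 to 0.09, limma adjusted p = 0.199), so Zfp36 was not called with the authors' scaling. All 4 alternative scalings called it lower, with log2 fold changes from -0.56 to -0.42 and limma adjusted p from 0.00309 to 0.0324. It rested on 91 and 73 reads in Cpeb4 and on 126 and 128 reads in IgG, which at equal read totals is 2.597 and 2.98 against 5.23 and 5.69 CPM.

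The scaling of the libraries set the size of the members' differences and ended none of the 6 calls. The alternatives scaled libraries to read totals, to the upper quartile, by trimmed mean of M-values or to the median of tested genes, and they placed the median log2 fold change of all tested genes between -0.23 and -0.04, against 0.19 with the authors' scaling. With libraries scaled to read totals, 17.6% of tested genes were called higher and 41.5% lower, while 6 members were called higher and 1 lower. The members' counts were the same under the other 3 scalings, where the shares of tested genes called higher and lower were 20.3% and 37.3% (upper quartile), 26.5% and 26.0% (trimmed mean of M-values) and 22.9% and 30.8% (median). Under all 5 scalings, 17.4% of tested genes and the same 6 members were called higher. The lowest log2 fold change over the 5 scalings was 1.18 for Zfp36l1, 0.77 for Tob1, 0.63 for Btg2, 0.58 for Btg1 and 0.46 for both Tob2 and Zfp36l2.

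**Figure D2:**
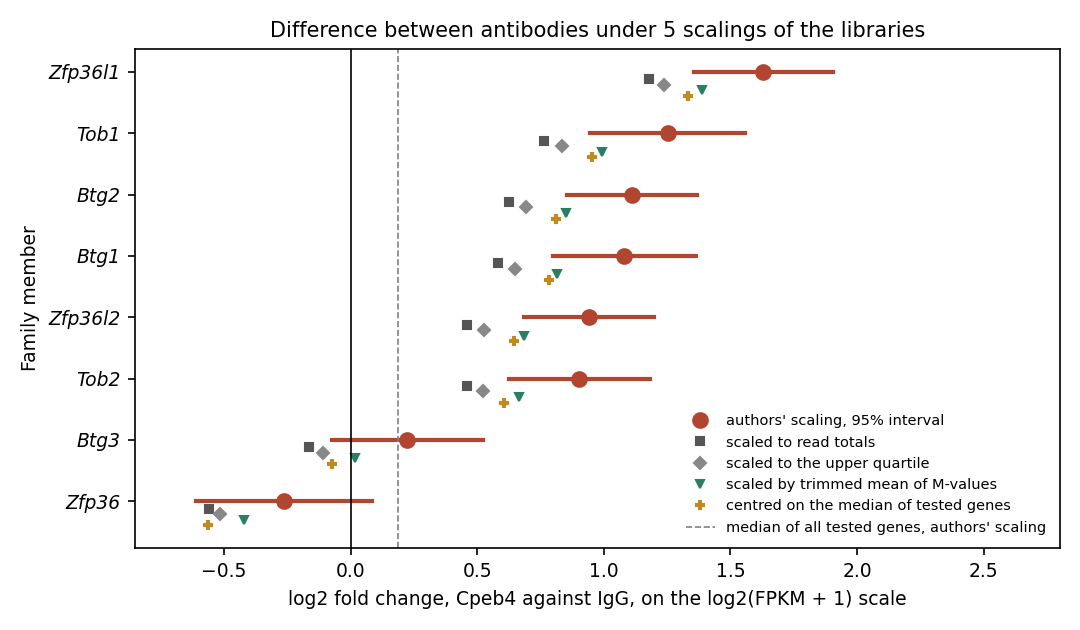
Log2 fold change of each member, Cpeb4 against IgG, with the authors' scaling (red circles; bars are 95% intervals) and under 4 other scalings (smaller symbols); the solid line marks 0 and the dashed line the median of all tested genes, 0.19. All 5 estimates lie above 0 for the upper 6 members, they straddle 0 for Btg3, and all lie below 0 for Zfp36.

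In the authors' deposited table the same 6 members had an adjusted p under 0.05, all higher, against 21.7% of the genes given an adjusted p there that were called higher and 4.93% called lower. The log2 fold changes in the authors' deposited table were 1.81 for Zfp36l1, 1.30 for Tob1, 1.15 for Btg2, 1.09 for Btg1, 1.03 for Tob2 and 0.99 for Zfp36l2. For Btg3 and Zfp36 the authors' deposited table gives 0.29 and -0.46 with adjusted p of 0.624 and 0.413. Their standard errors there, 0.35 and 0.38, exceeded those of the other members, 0.16 to 0.20, and they had the fewest reads of the 8.

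Because FPKM is given per length of gene, levels can be set side by side between members. In IgG immunoprecipitates the order of mean FPKM was Btg1 (37.5), Btg2 (15.6), Tob1 (15.2), Zfp36l2 (13.6), Tob2 (4.98), Zfp36l1 (4.89), Btg3 (2.92) and Zfp36 (1.62). The ranges of Btg2 and Tob1 overlapped there, as did those of Tob2 and Zfp36l1. In Cpeb4 immunoprecipitates the order was Btg1 (80.9), Tob1 (37.9), Btg2 (34.9), Zfp36l2 (27.1), Zfp36l1 (17.2), Tob2 (10.2), Btg3 (3.58) and Zfp36 (1.19). Only Tob1 and Btg2 overlapped in that order. Zfp36l1, level with Tob2 in IgG, thus stood above it in both Cpeb4 libraries.

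Shares and ratios within a library do not depend on how libraries are scaled. The summed level of the 8 members was 201 and 225 FPKM in Cpeb4 and 98.2 and 94.5 FPKM in IgG, and Btg1 held 36.3% to 39.7% of it in all 4 libraries. Zfp36l1 was at 4.73% and 5.43% of the sum in IgG and at 9.14% and 7.15% in Cpeb4. Zfp36 made up 1.58% and 1.79% in IgG and 0.529% and 0.585% in Cpeb4, and Btg3 2.904% and 3.17% against 1.81% and 1.57%. The shares of Btg1, Btg2, Tob1 and Tob2 overlapped between antibodies, and that of Zfp36l2 was 13.6% and 14.7% in IgG and 13.1% and 12.3% in Cpeb4.

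**Figure D3:**
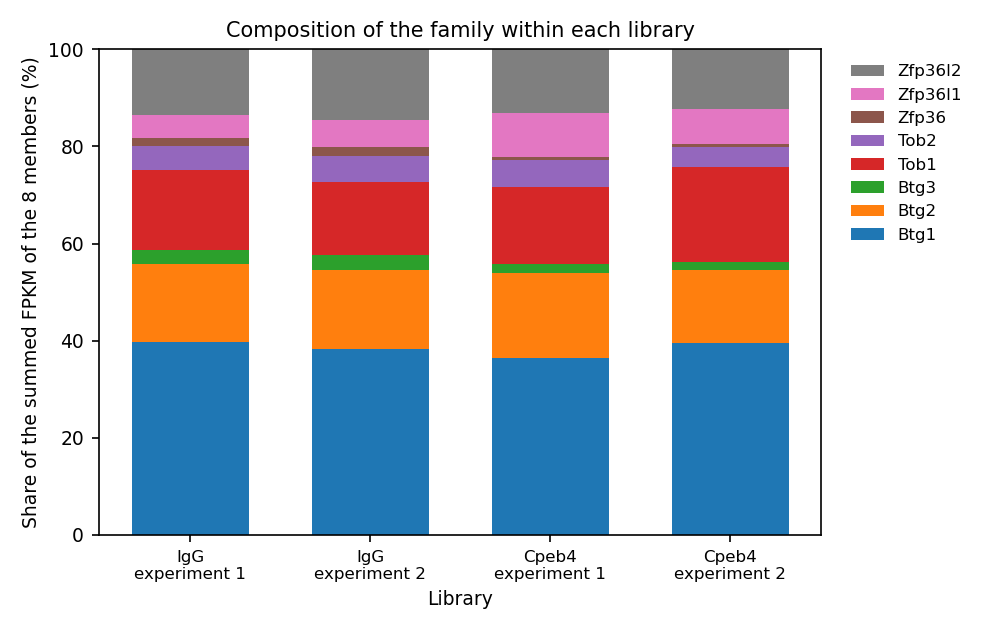
Share of each member in the summed FPKM of the 8 members, in percent, for the 4 libraries. The Zfp36l1 segment is wider in both Cpeb4 libraries (9.14% and 7.15%) than in both IgG libraries (4.73% and 5.43%), the Zfp36 and Btg3 segments are narrower, and the Btg1 segment stays between 36.3% and 39.7%.

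Ratios between members were taken for 7 pairs, chosen after their values were seen. The level of Zfp36l1 relative to Zfp36l2 was 0.697 and 0.580 in Cpeb4 and 0.349 and 0.370 in IgG. Relative to Zfp36, Zfp36l1 stood at 17.3 and 12.2 in Cpeb4 and at 2.98 and 3.03 in IgG. In the BTG branch the ratio of Btg2 to Btg3 was 9.76 and 9.71 in Cpeb4 and 5.55 and 5.14 in IgG. These 3 ratios were higher in both Cpeb4 libraries, as was that of Tob1 to Btg1 by a smaller margin (0.437 and 0.496 against 0.414 and 0.393). The ratio of Zfp36l2 to Btg2 was lower in both (0.741 and 0.811 against 0.842 and 0.900). The ratio of Tob1 to Tob2 overlapped between antibodies (2.904 and 4.66 against 3.33 and 2.78), as did that of Btg1 to Btg2 (2.05 and 2.59 against 2.47 and 2.35). With 2 libraries against 2, the smallest two-sided p of an exact permutation test is 0.333, and no other test of the ratios was run.

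Near-identical copies can take reads from the members. The Btg1 pseudogenes Btg1-ps1 and Btg1-ps2 held 0 to 6 reads per library and Zfp36l1-ps 0 to 8, against at least 4900 reads for Btg1 and 403 for Zfp36l1. How reads with several matches were counted is not given in the sources used here.

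Genes of the same pathways were described from lists of partners and regulators, by counts in the same fit. These counts stand beside 38.8% of all tested genes called higher and 11.6% called lower with the authors' scaling. With libraries scaled to read totals the shares were 17.6% and 41.5%. Of 11 CCR4-NOT subunits, 9 were higher, 0 lower and 2 not called, with a median log2 fold change of 0.79. With libraries scaled to read totals, 5 subunits were higher and 1 lower. Cnot7, a Caf1 deadenylase bound by BTG/Tob proteins, was at 169 and 224 FPKM in Cpeb4 and 43.3 and 40.6 in IgG (log2 fold change 2.19, SE 0.14, limma adjusted p = 4.40e-08). The deadenylase Cnot6l followed at 1.96 (SE 0.13). Cnot8, which encodes the other Caf1 deadenylase, was at 76.5 and 68.8 FPKM in Cpeb4 and 44.0 and 39.1 in IgG. Its log2 fold change was 0.79 (SE 0.12), and its call held under 4 of the 5 scalings. Among 6 other deadenylase and poly(A)-binding genes, 2 were higher and 2 lower with a median of 0.05. Pabpc1, the poly(A)-binding partner of Tob proteins, had a log2 fold change of 0.62 and the deadenylase subunit Pan3 0.48, while Pan2 (-0.60) and the nuclear poly(A)-binding Pabpn1 (-1.02) were lower. The Pabpc1 call held under 3 of the 5 scalings and that of Pan3 with the authors' scaling alone, while both lower calls held under all 5. With libraries scaled to read totals, 0 of these 6 genes were higher and 4 lower.

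Other AU-rich element binding proteins, which compete with or act beside the TTP family, were higher for 9 of 11 genes and lower for 0, with a median log2 fold change of 0.83. Elavl4 (HuD), a neuronal stabilizer of such mRNAs, was at 87.8 and 97.9 FPKM in Cpeb4 and 16.2 and 14.7 in IgG (log2 fold change 2.51, SE 0.13), and the decay factor Roquin-1, Rc3h1, had 1.45 (SE 0.13). Scaled to read totals, 6 were higher and 1 lower, and with the length and level trend removed 4 were higher and 1 lower. For all tested genes the shares higher and lower were 38.8% and 11.6% with the authors' scaling. They were 17.6% and 41.5% scaled to read totals, and 25.8% and 25.5% with that trend removed. Of 13 genes for p38-MK2 kinases, 14-3-3 proteins and protein phosphatase 2A, which set the phosphorylation state of TTP, 7 were higher, 0 lower and 6 not called, with a median of 0.35. The 14-3-3 gene Ywhae (1.80, SE 0.15) and the phosphatase subunit Ppp2cb (1.56, SE 0.14) led. Of the kinase genes, Mapkapk2, which encodes MK2, was higher (0.35, SE 0.12) with the authors' scaling alone. Mapk14 (0.08), Mapk11 (-0.19) and Mapkapk3 (0.13) were not called with that scaling. Mapk11 was lower under 4 and Mapk14 under 2 of the 5 scalings. Scaled to read totals, 5 were higher and 4 lower, and with the length and level trend removed 4 were higher and 4 lower. Of the 7 listed partners of BTG and Tob proteins, 4 passed the filter and 3 were higher, among them Smad4 (1.38, SE 0.13) and Smad5 (0.99, SE 0.12), while the arginine methyltransferase gene Prmt1, a partner of Btg1 and Btg2, had 0.01 and was not called; scaled to read totals, 2 partners were higher and 1 lower.

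**Figure D4:**
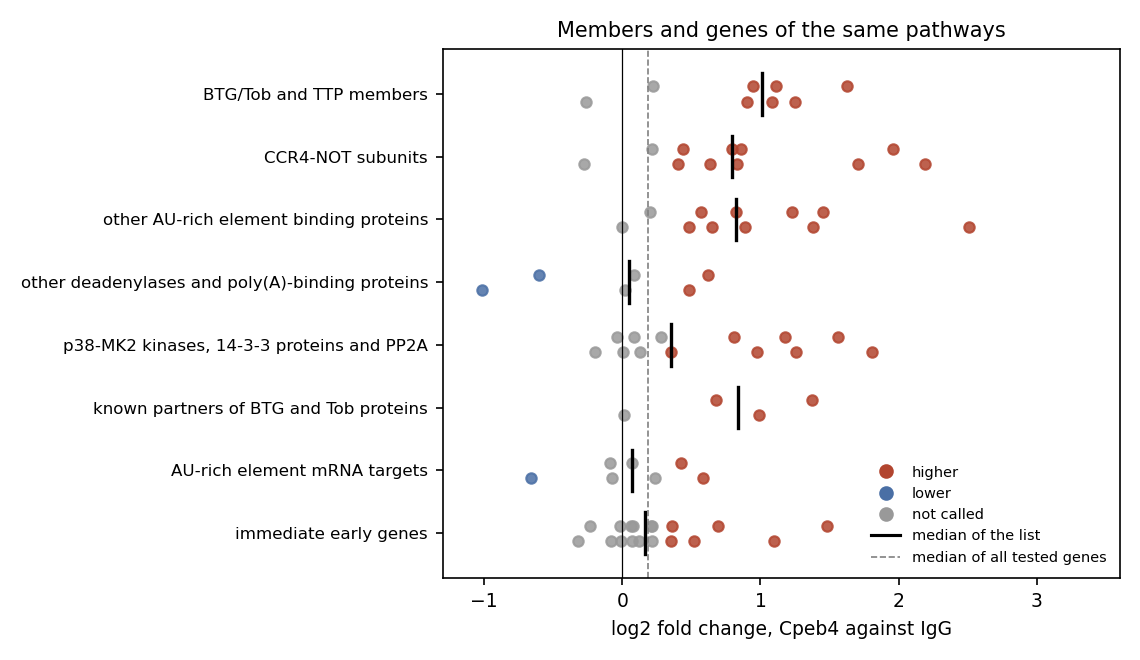
Log2 fold change, Cpeb4 against IgG, of the members and of each tested gene in 7 related lists; red points were called higher, blue points lower and grey points not called, black bars are list medians and the dashed line is the median of all tested genes, 0.19. The medians of the members (1.01), of CCR4-NOT subunits (0.79) and of other AU-rich element binding proteins (0.83) lie to the right. So does that of the 4 tested partners of BTG and Tob proteins (0.83). The median is 0.35 for p38-MK2 kinases, 14-3-3 proteins and PP2A, and 0.05 for other deadenylases and poly(A)-binding proteins. Those of AU-rich element mRNA targets (0.07) and immediate early genes (0.17) lie near the dashed line.

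Transcripts known in other tissues as targets of the TTP family were mostly rare here: of 16, 7 passed the filter, and 9 did not, among them the cytokine gene Tnf at 0.0199 to 0.0841 FPKM. Of the 7, 2 were higher, 1 lower and 4 not called, with a median of 0.07. The angiogenic factor Vegfa (0.58, SE 0.12) and cyclin D1, Ccnd1 (0.42, SE 0.12) were higher, and the stress response gene Ier3 was lower (-0.66, SE 0.17). The call held under 2 of the 5 scalings for Vegfa, with the authors' scaling alone for Ccnd1 and under all 5 for Ier3. Scaled to read totals, 0 of the 7 were higher and 3 lower. The shares of all tested genes called higher and lower were 38.8% and 11.6%, and 17.6% and 41.5% scaled to read totals. Of 21 immediate early genes, the transcription class to which Zfp36 and Btg2 belong, 18 passed the filter. Of these, 6 were higher (33.3%), 0 lower and 12 not called, beside 38.8% of all tested genes higher and 11.6% lower. Klf6 (1.48, SE 0.12) and Egr3 (1.10, SE 0.14) led, and the classical members Fos (0.07) and Egr1 (0.12) were not called. The balance turned with some scalings: 2 were higher and 7 lower with libraries scaled to read totals, and 3 and 5 by upper quartile. It was 3 and 3 centred on the median, and by trimmed mean of M-values it did not turn.

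Markers of other cells that the dissected tissue can hold went in several directions. Of 10 microglia markers 1 was higher and 4 were lower, and their summed level was 191 and 186 FPKM in Cpeb4 and 188 and 175 FPKM in IgG. Of 9 tested endothelial and mural markers 1 was higher and 2 were lower (94.4 and 93.6 against 83.5 and 81.5 FPKM summed over 10). Ependymal markers were higher for 0 and lower for 3 of 7 tested, and erythroid and choroid plexus markers higher for 0 and lower for 3 of 5 tested. Neuroblast markers were higher for 8 of 12 and lower for 0, neural stem cell and astrocyte markers higher for 9 and lower for 1 of 12, oligodendrocyte lineage markers higher for 7 and lower for 0 of 10, and striatal neuron markers higher for 4 and lower for 0 of 8. These counts hold with the authors' scaling, under which 38.8% of all tested genes were called higher and 11.6% lower. With libraries scaled to read totals, the counts of higher and lower markers were 1 and 8 for microglia, 1 and 6 for endothelial and mural cells, 0 and 7 for ependymal cells and 0 and 4 for erythroid cells and choroid plexus. They were 5 and 3 for neuroblasts, 4 and 3 for neural stem cells and astrocytes, 1 and 1 for the oligodendrocyte lineage and 2 and 4 for striatal neurons. With that scaling 17.6% of all tested genes were higher and 41.5% lower. None of these markers was at 0 in any library. Their part in the family results was not tested.

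The genes most like the extremes of the family were found by distance between centred log2(FPKM + 1) profiles over the 4 libraries, among 8304 genes with a mean of at least 3 on that scale. For Zfp36l1 the nearest were the transcription coregulator gene Sertad2 at a distance of 0.0746, Mfap3 at 0.117 and the neuronal splicing factor gene Rbfox1 at 0.163. Sertad2 was at 18.9 and 17.4 FPKM in Cpeb4 and 5.17 and 5.71 in IgG, close to Zfp36l1 in level as well. For Zfp36 the nearest were the Myc partner gene Max at 0.0202, 4732496C06Rik at 0.0390 and the ubiquitin ligase gene Mycbp2 at 0.0400. With 4 libraries, likeness mostly follows the size of the difference between antibodies.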

How the data were processed

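Per the labels' protocols, precipitated RNA (MAGNA RIP kit) was turned into cDNA by SMART-Seq v4 and into libraries by Nextera XT. Such cDNA does not mark strand. The genome build is mm10, per the submitters' processing notes, which also list, without roles, HTSeq 0.6.1p2, STAR 2.6.0c, DESeq2 1.26.0, Trim Galore 0.5.0 and FastQC 0.11.5. Per the file headers, the authors deposited FPKM per library, a mean level (a signal, reads divided by size factors), a log2 fold change, its standard error and test score, and p-values. Whole reads were recovered by joining the FPKM steps to the mean level (100% of 121444 values within 0.01 of a whole number). Reads without molecular identifiers are not independent molecules.

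Genes reaching an FPKM of 1 in 2 or more libraries entered a limma fit (version 3.58.1 in R 4.3.3) of log2(FPKM + 1) with a trended prior and experiment as a block, two-sided, with Benjamini-Hochberg adjustment over 15745 genes. The pseudocount understates changes of low genes. The block left 1 residual degree of freedom and the prior added 14.6. The titles number each Cpeb4 library and its IgG control by experiment. The deviations of same-numbered libraries correlated at 0.0024 across genes. The code was tested on simulated data, where false calls concentrated in genes with a mean under 100 reads. Every member had a higher mean, the lowest being 104.5 for Zfp36. The simulation gave both antibodies the same spread and changed few genes, unlike these libraries, so it cannot vouch for the members' calls. The members and lists were chosen with earlier results of these data known. The genes named were all members, Cpeb4, up to 2 called genes per direction and list with the largest changes, and the nearest profiles; further list genes were chosen after their values were seen. Marker lists are given by counts, with Dcx as the example. Gene positions are from RefSeq on GRCm38.p6. The table held 0 columns of other samples.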

Additional observations from a re-analysis of the deposited data

How the results depend on the processing

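Of 110 member fold changes under 14 alternatives 103 kept their direction and side of the threshold. The 6 higher members stayed called under all 14, including no replicate block (6 members, with 6007 genes higher and 1714 lower overall) and each left-out library. Btg3 reversed to -0.16, -0.11 and -0.0743 when scaled to read totals, to the upper quartile or to the median. Its distance above the median of all tested genes was 0.068, 0.064 and 0.038 there, and 0.038 with the authors' scaling. The cause of the reversal was not tested. Members called lower numbered 1 (Zfp36) under each of the 4 other scalings and 0 otherwise. Btg3 and Zfp36 had no value at a filter of FPKM 5. At that filter 51.3% of all genes were called higher and 9.28% lower. Their median log2 fold change was 0.31, against 1.10 for the 6 members left. The share of genes called higher was 38.2% with no replicate block and 25.8% with the length and level trend removed.

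Genes called higher numbered 6106, and 2768 scaled to read totals, 3197 to the upper quartile, 3607 centred on the median, 3915 with no filter and 4028 with the length and level trend removed. Genes called lower numbered 1822, and 6534, 5879 and 4857 under those 3 scalings, 4093 by trimmed mean of M-values, 875 with no filter, 937 at FPKM 5 and 3987 with the trend removed. Leaving out 1 library without the block gave 3977 to 6534 higher and 867 to 2497 lower; without IgG replicate 2 the counts were 3977 and 867, and without IgG replicate 1, 942 were lower. Btg3 and Zfp36 had the fewest reads of the members; whether depth kept them from being called was not tested.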

Other observations

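Within a single library, the rank of a transcript among all tested genes does not depend on library scaling. Zfp36l1 stood at or above 39.1% and 41.5% of tested genes in the IgG libraries and 70.8% and 66.9% in the Cpeb4 libraries. The same shares were 74.9% and 71.4% against 83.5% and 88.5% for Tob1, and 74.2% and 73.6% against 85.6% and 84.3% for Btg2. Tob2 stood at 40.2% and 41.5% in IgG and at 56.6% and 52.2% in Cpeb4. Btg3 differed little, at 27.2% and 28.3% in IgG and 30.2% and 28.9% in Cpeb4, and Zfp36 was at 12.9% and 15.0% against 7.39% and 10.2%. These ranks were not tested.

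Relatives outside the named members were near the detection limit. Btg4, the oocyte member of the BTG family, held 9 and 9 reads in the IgG libraries and 5 and 1 in the Cpeb4 libraries. Zfp36l3, a rodent TTP paralog known from placenta and yolk sac, was at 0.0139 and 0 FPKM in Cpeb4 and at 0 and 0.0785 FPKM in IgG.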
